A study of Mus musculus with 8 samples.

Results

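The Hox genes encode homeodomain transcription factors and lie in 4 clusters, Hoxa, Hoxb, Hoxc and Hoxd, in which the order of the genes follows the order of their domains of activity along the body axis. Genes that hold the same place in different clusters are paralogues and carry the same number. Low numbers mark anterior genes and high numbers posterior ones. In the limb the posterior genes also take part in setting the segments along the proximodistal axis, with paralogues 9 and 10 tied to the upper segment that includes the femur, 11 to the middle segment and 13 to the hand and foot. Adult skeletal cells are known to keep a Hox pattern that reflects where in the skeleton they arose. The members described here are all genes whose symbol is Hox, a cluster letter and a number, and which have at least 1 probe set, the unit of an Affymetrix array, annotated to that gene alone. They numbered 33 genes with 48 probe sets, among 18193 genes and 45037 probe sets on the arrays. Hoxa6, Hoxb8, Hoxc11, Hoxc12 and Hoxd4 had no probe set of their own. A further 3 probe sets carried several Hox symbols (Hoxd3 with Hoxd4, and Hoxb7 with Hoxb8) and were left out.

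Gene expression was measured on 8 arrays of skeletal cells that were sorted from the femoral fracture callus of male C57/Bl6 mice and not cultured. The mice were 10 to 12 weeks old, all had a pinned femoral fracture, and the labels place the harvest at day 7. Skeletal stem cells (SSCs, 4 arrays) were sorted as CD45-, Ter119-, Tie2-, CD51+, CD200+, 6C3-, Thy1- and CD105- cells, and bone, cartilage and stromal progenitors (BCSPs, 4 arrays), which lie downstream of SSCs, as CD45-, Ter119-, Tie2-, CD51+, 6C3-, Thy1- and CD105+ cells. Each of 4 experiments gave 1 array of each population from 10000 sorted cells, and the study's legend speaks of different mice. All calluses came from 1 bone, the femur, and no array of another skeletal site was analysed here, so the values describe the Hox pattern of femoral callus cells and compare no positions. The files hold an activity score, on a scale that ends near -100 and 100 points, which places each probe set within its own range over a large collection of public mouse arrays, with 0 as the threshold between inactive and active. A gene is called active on an array where the score is above 0. The score does not order mRNA amounts between genes, since each probe set has its own range, and it saturates toward either end, so comparisons are stated in points and no folds are given. In these bulk samples fewer cells with a transcript and less RNA per cell cannot be told apart.

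Promoter sequences are shown first for the paralogue pairs 9 and 10 of the Hoxa and Hoxd clusters, because Hoxa9 and Hoxa10 were active on all 8 arrays while Hoxd9 and Hoxd10 were inactive on all 8. The RefSeq promoter table (GRCm38.p6) holds windows for 22 Hox genes. Genes without a window are Hoxa4, Hoxb2, Hoxb3, Hoxb5, Hoxb6, Hoxb7, Hoxb9, Hoxb13, Hoxc5, Hoxc6, Hoxc8, Hoxc9, Hoxc10, Hoxc11, Hoxc12 and Hoxc13. Each line gives the 250 bases before an annotated start site, 5′ to 3′ on the strand of the gene. Capitals mark matches, on either strand, to TATAAA (the TATA box) or CCAAT (the CCAAT box). The other motifs searched had no match in these 5 windows. The windows lie at chr6:52227371-52227620 (minus strand) for Hoxa9 and chr2:74697513-74697762 (plus strand) for Hoxd9. The upstream and downstream starts of Hoxa10 have windows at chr6:52240855-52241104 and chr6:52234940-52235189 (minus strand), and the window of Hoxd10 lies at chr2:74691641-74691890 (plus strand).
Hoxa9: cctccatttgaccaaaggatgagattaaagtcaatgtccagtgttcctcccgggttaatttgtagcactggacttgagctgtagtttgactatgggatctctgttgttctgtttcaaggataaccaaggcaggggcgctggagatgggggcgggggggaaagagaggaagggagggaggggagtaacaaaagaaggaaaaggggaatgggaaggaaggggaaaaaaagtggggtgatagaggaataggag
Hoxd9: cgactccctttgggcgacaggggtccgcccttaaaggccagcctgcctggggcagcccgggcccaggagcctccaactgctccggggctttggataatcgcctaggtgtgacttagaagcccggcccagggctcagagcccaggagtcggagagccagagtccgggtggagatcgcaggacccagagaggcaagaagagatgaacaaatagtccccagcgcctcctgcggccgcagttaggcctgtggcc
Hoxa10 upstream start: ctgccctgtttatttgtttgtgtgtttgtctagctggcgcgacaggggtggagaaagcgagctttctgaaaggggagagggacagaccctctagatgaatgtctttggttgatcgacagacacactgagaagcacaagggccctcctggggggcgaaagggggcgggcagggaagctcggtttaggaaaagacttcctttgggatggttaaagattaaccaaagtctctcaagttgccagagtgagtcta
Hoxa10 downstream start: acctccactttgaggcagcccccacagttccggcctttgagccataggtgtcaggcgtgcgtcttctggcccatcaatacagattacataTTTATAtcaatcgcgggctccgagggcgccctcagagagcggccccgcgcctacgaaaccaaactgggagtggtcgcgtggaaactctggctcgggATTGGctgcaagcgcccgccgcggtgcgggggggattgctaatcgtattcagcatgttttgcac
Hoxd10: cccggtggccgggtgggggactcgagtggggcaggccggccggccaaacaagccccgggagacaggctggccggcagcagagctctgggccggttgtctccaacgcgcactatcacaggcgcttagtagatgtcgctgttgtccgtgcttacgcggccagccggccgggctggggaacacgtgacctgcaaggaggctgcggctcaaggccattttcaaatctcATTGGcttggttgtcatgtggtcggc

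The capitals in the downstream window of Hoxa10 mark a match to TATAAA on the opposite strand, 160 to 155 bases before the start. They also mark a match to CCAAT on the opposite strand, 64 to 60 bases before it. Hoxd10 had 1 match to CCAAT, also on the opposite strand, 26 to 22 bases before the start. Counted over 1 window a gene, the one farthest upstream, and on both strands with overlaps allowed, CCAAT was present in 13 of the 22 Hox promoters and in 34.5% of all 27025 promoters of the same length. TATAAA was present in 3 of the 22 and in 12.98% of all. TGATNNAT, a composite of the letters bound by PBX and Hox proteins, was present in 3 of the 22 and in 7.89% of all. TGACAG, the letters known for Meis proteins, was present in 2 of the 22 and in 15.9% of all, and TTTATG, known for Cdx proteins, in 5 of the 22 and in 11.1% of all. The observed over expected CpG ratio was at least 0.6 in 11 of the 22 Hox windows and in 34.5% of all promoters. It was 0.266 in the Hoxa9 window and 0.458 in the upstream Hoxa10 window, and 0.490 and 0.755 in those of Hoxd9 and Hoxd10. The ratio of the downstream Hoxa10 window was not computed, and which start was in use was not tested. These values therefore do not set active against inactive genes. These counts describe letters in the windows and were not tested.

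The arrays carried the pattern of skeletal cells. Of 15 measured skeletal markers 13 were active on all 8 arrays, among them the cartilage regulator Sox9 and the osteoblast regulator Sp7. Pdpn was inactive on all 8. Eng, which encodes the sort marker CD105, was active on 2, both of them BCSP arrays. It scored -64.4 to -29.4 points on the SSC arrays and -1.02 to 50.1 on the BCSP arrays. No marker of another cell type was active on all 8 arrays, out of 18 blood, 11 endothelial and 10 muscle markers. The median of these lists ran over the arrays from -70.6 to -45.2 points for blood, from -79.5 to -46.1 for endothelium and from -64.6 to -27.1 for muscle. Of these markers 3 were above 0 on any array, all of them blood markers, so that Ptprc (CD45), Pecam1, Cdh5, Ckm and Myod1 were above 0 on none. The hemoglobin gene Hba-a1 was active on 5 arrays. Laptm5, a leukocyte gene, scored 73.9, 53.1 and 40.7 points on the SSC arrays of experiments 2, 3 and 4, -58.3 on that of experiment 1 and -35.1 to -1.72 on the BCSP arrays. The immunoglobulin gene Ighm scored 59.6 points on the BCSP array of experiment 1 and was below 0 on the others. The part of blood cells in the Hox values was not tested. Between 35.8% and 41.2% of all genes were above 0 on an array. The number of arrays limits the precision, and p-values measure the spread between these 8 arrays.

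The Hox genes active on all 8 arrays lay in the Hoxa and Hoxc clusters. Of the 33 genes, 5 were active on all 8 arrays: Hoxa9, Hoxa10, Hoxc8, Hoxc9 and Hoxc10. This is 15.2% of the Hox genes, and 25% of all genes were active on all 8 arrays. A further 20 Hox genes were inactive on all 8 arrays, against 43.5% of all genes, and 8 were mixed. The median of the gene means was -23.5 points over the Hox genes and -18.4 over all genes. By cluster, 3 of 7 Hoxc genes and 2 of 9 Hoxa genes were active on all 8 arrays, and 0 of 9 Hoxb and 0 of 8 Hoxd genes were. The cluster medians were 37.7 points for Hoxc, -16.0 for Hoxa, -43.8 for Hoxb and -61.4 for Hoxd. Hoxc13 alone among the measured Hoxc genes was inactive on all 8 arrays, whereas 7 of 8 Hoxd genes and 7 of 9 Hoxb genes were.

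**Figure D1:**
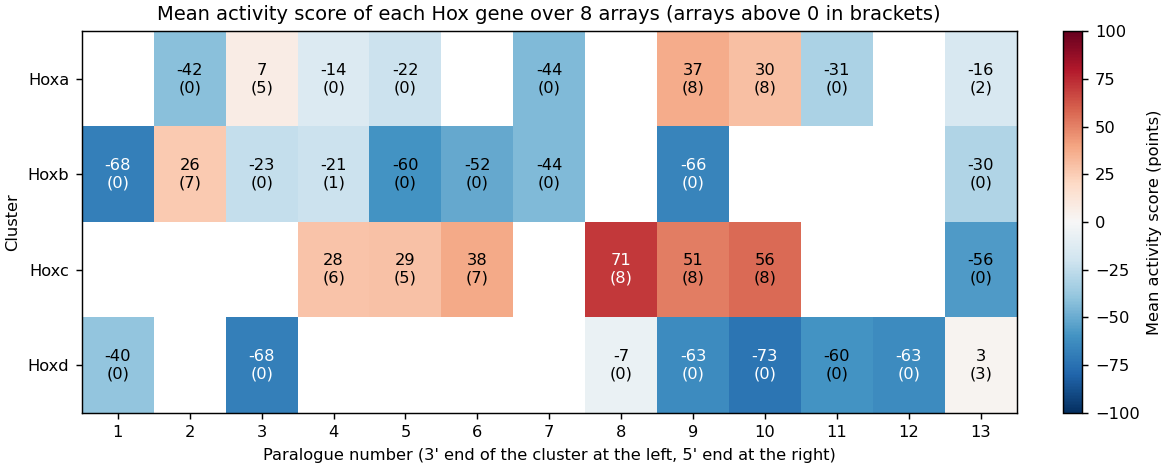
Mean activity score over 8 arrays (colour and upper number, in points) for each Hox gene by cluster (rows) and paralogue number (columns), with the number of arrays above 0 in brackets; empty squares have no value here. The squares with 8 arrays above 0 sit at numbers 8, 9 and 10 of Hoxc and at 9 and 10 of Hoxa, while the Hoxd squares at 9 to 12 have means from -72.7 to -59.6 points.

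Read by paralogue number, the genes active on all 8 arrays were confined, among those measured, to numbers 8, 9 and 10. They made up 1 of 2 genes of number 8, 2 of 4 of number 9 and 2 of 3 of number 10. None of the measured genes of numbers 1 to 7 was active on all 8 arrays, and neither was any of numbers 11, 12 and 13. Grouped by position, 0 of 10 anterior genes (numbers 1 to 4), 1 of 9 central genes (5 to 8) and 4 of 14 posterior genes (9 to 13) were active on all 8 arrays, and 6, 6 and 8 were inactive on all 8. The same number did not carry the same call in each cluster. For number 9, the Hoxa and Hoxc genes were active on all 8 arrays and the Hoxb and Hoxd genes inactive on all 8. For number 10, Hoxa10 and Hoxc10 were active and Hoxd10 inactive on all 8 arrays. Both measured genes of number 11, Hoxa11 and Hoxd11, which act together in the middle limb segment, were inactive on all 8 arrays. Among the genes of number 13, Hoxb13 and Hoxc13 were inactive on all 8, and Hoxa13 and Hoxd13, the genes of the hand and foot, were above 0 on 2 and 3 arrays.

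Hoxc8, which is known for patterning of the thoracic skeleton, scored 60.1, 71.6, 87.1 and 61.9 points on the SSC arrays of experiments 1 to 4. On the BCSP arrays of the same experiments it scored 64.1, 70.3, 88.3 and 60.9 points. All 8 values were at least 60.1, and the population means were 70.2 ± 12.4 and 70.9 ± 12.2 points (SD, n = 4 each). Hoxc10, a posterior gene that is a marker of the hind limb, scored 64.8, 63.5, 48.1 and 55.4 points in SSCs. In BCSPs it scored 37.6, 62.6, 55.2 and 63.3 points. The populations overlapped, with means of 57.9 ± 7.76 and 54.7 ± 11.9 points (SD, n = 4 each). Hoxc9, a posterior gene of the trunk and hind limb, scored 79.6, 64.2, 37.8 and 10.3 points in SSCs. In BCSPs it scored 78.5, 55.3, 51.8 and 31.9 points. Both populations had their highest value in experiment 1 and their lowest in experiment 4, and the means were 48.0 ± 30.5 and 54.4 ± 19.1 points.

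Hoxc4, Hoxc5 and Hoxc6 were active on some arrays and inactive on others. Hoxc4 was above 0 on 6 arrays, with 54.3, 14.7, -0.45 and -1.63 points in SSCs and 44.9, 31.2, 37.3 and 46.1 points in BCSPs. Hoxc5 was above 0 on 5 arrays, with -11.0, 38.5, 59.5 and -3.66 points in SSCs and -15.5, 45.03, 65.6 and 55.7 points in BCSPs. Hoxc6 was above 0 on 7 arrays, with 1.97, 36.3, 15.6 and 15.9 points in SSCs and 86.6, 80.1, 73.0 and -7.48 points in BCSPs. Hoxc6 therefore had 3 BCSP arrays above every SSC array and 1 below every SSC array. Hoxc13, known for its part in hair, lay between -81.5 and -39.7 points on the 8 arrays.

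In the Hoxa cluster the genes active on all 8 arrays were adjacent. Hoxa9, a posterior gene also known for its role in blood stem cells, scored 41.0, 32.0, 50.7 and 18.1 points on the SSC arrays of experiments 1 to 4 and 33.9, 38.1, 49.0 and 35.9 points on the BCSP arrays. Hoxa10, which takes part in patterning of the femur, scored 56.6, 18.3, 25.4 and 15.4 points in SSCs and 36.2, 36.5, 38.2 and 16.6 points in BCSPs. The populations overlapped for both genes. Hoxa11, the next gene toward the 5′ end, was below 0 on every array, with -12.3, -18.4, -25.8 and -20.7 points in SSCs and -39.3, -25.5, -67.2 and -41.9 points in BCSPs. Hoxa13 reached 12.2 points on the SSC array and 56.5 points on the BCSP array of experiment 4 and was below 0 on the other arrays. Hoxa3 had the widest spread of the Hox genes, from -79.7 to 73.5 points, and was above 0 on 5 arrays. Hoxa2, Hoxa4, Hoxa5 and Hoxa7 were below 0 on all 8 arrays, with means of -41.7, -13.8, -21.8 and -44.2 points.

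**Figure D2:**
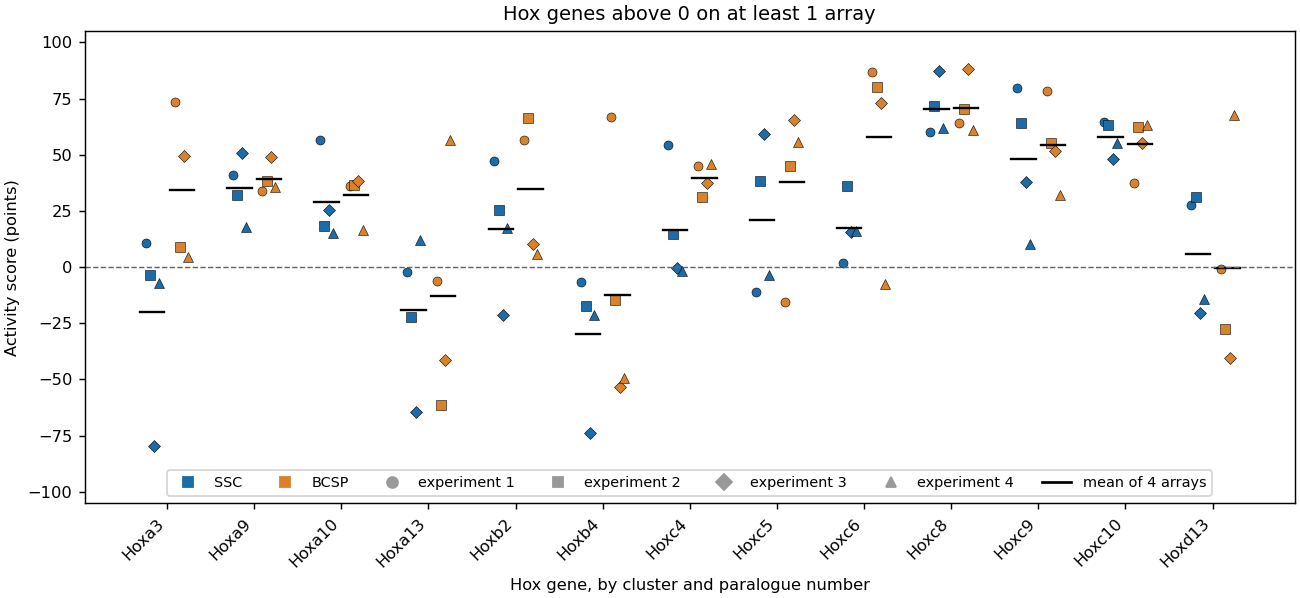
Activity score in points (vertical axis) of the 13 Hox genes above 0 on at least 1 array, with SSC arrays in blue and BCSP arrays in orange, a marker shape for each experiment and a bar for the mean of 4 arrays. Hoxc8 sits between 60.1 and 88.3 points on all arrays, whereas the points of Hoxa3 run from -79.7 to 73.5.

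Hoxb2, an anterior gene of the hindbrain region, was the Hoxb gene with the highest mean, 26.0 points. It scored 47.1, 25.6, -21.2 and 17.2 points in SSCs and 56.8, 66.5, 10.3 and 5.95 points in BCSPs, so that 7 arrays were above 0. Hoxb4 was above 0 on 1 array, the BCSP array of experiment 1 (66.9 points), and lay between -73.8 and -6.84 points on the others. The other Hoxb genes, Hoxb1, Hoxb3, Hoxb5, Hoxb6, Hoxb7, Hoxb9 and Hoxb13, were below 0 on all 8 arrays with means from -68.5 to -23.5 points.

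In the Hoxd cluster, whose posterior genes are known for their part in limb outgrowth and digits, the genes of numbers 9 to 12 were far below the threshold. Hoxd9 lay between -81.8 and -46.4 points, Hoxd10 between -88.9 and -51.3, Hoxd11 between -88.1 and -11.6 and Hoxd12 between -96.4 and -20.5. Hoxd1 and Hoxd3 had means of -39.8 and -68.4 points and were below 0 on all 8 arrays. Hoxd8 lay just below the threshold on every array, between -11.8 and -2.64 points. Hoxd13 was the exception, with 27.9, 31.0, -20.4 and -14.2 points in SSCs and -0.94, -27.5, -40.6 and 67.7 points in BCSPs.

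The calls depended on the probe set where a gene had several. Each gene takes the score of whichever of its probe sets had the highest mean, and 22 of the 33 genes had 1 probe set, 8 had 2, 2 had 3 and 1 had 4. Among the 11 genes with several, all probe sets gave the same call on all 8 arrays for 4 (Hoxa4, Hoxa5, Hoxb3 and Hoxd8), each time inactive. The means of the highest and the lowest probe set lay over 30 points apart in 7 of the 11, with the widest gap, 110.2 points, for Hoxc5. The difference between SSCs and BCSPs had the same direction in all probe sets for 4 of the 11 (Hoxa4, Hoxa10, Hoxb3 and Hoxd8).

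Among the genes active on all 8 arrays, Hoxc8, Hoxc9 and Hoxc10 had 1 probe set each. The second probe set of Hoxa9 was above 0 on 6 arrays, with -2.25 points on the SSC array of experiment 3, -1.08 on the BCSP array of experiment 4 and a mean of 18.1 points. The second probe set of Hoxa10 was below 0 on all 8 arrays, from -79.0 to -0.07 points, so the call for Hoxa10 rests on its other probe set. RefSeq gives Hoxa10 the 2 start windows printed above, and which transcript each probe set reads was not tested. The other probe sets of Hoxc5 had means of -7.13 and -80.9 points, and those of Hoxc6 -24.3 and -30.3. Both of these Hoxc6 probe sets were above 0 on the arrays of experiment 2 (33.2 to 46.6 points) and below 0 on the arrays of the other experiments. The 4 probe sets of Hoxa3 had means of 7.13, 4.06, -23.4 and -65.6 points.

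**Figure D3:**
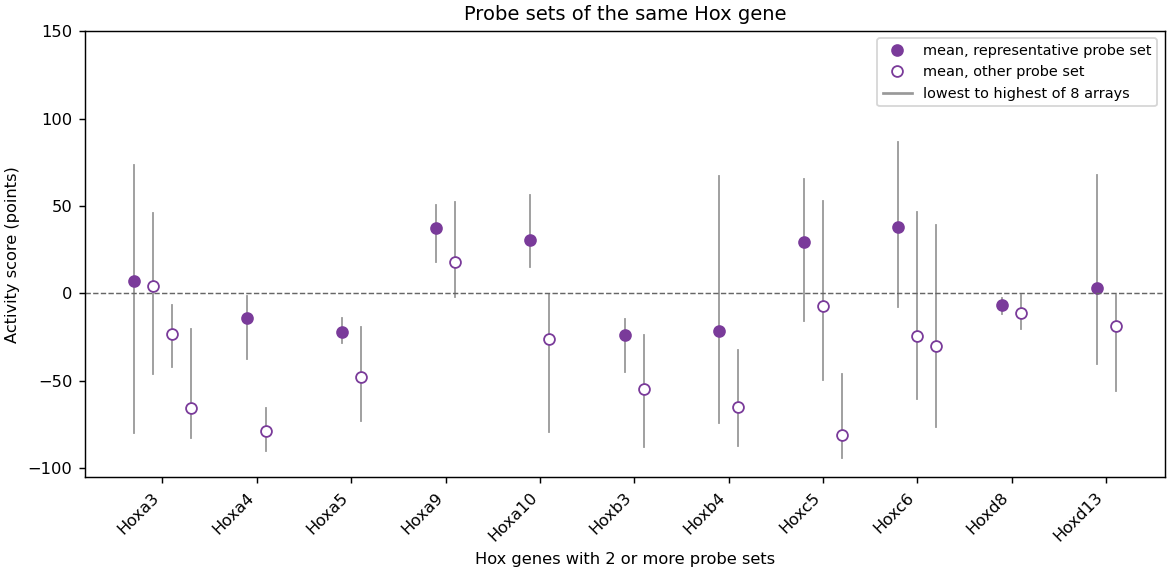
Mean activity score in points (vertical axis) of each probe set of the 11 Hox genes with 2 or more, filled for the representative probe set and open for the others, with a line from the lowest to the highest of 8 arrays. The filled point of Hoxa10 is at 30.4 points and its open point at -26.1, while both probe sets of Hoxd8 lie at -6.62 and -11.0.

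The first comparison asked whether Hox genes differ between SSCs and their downstream progenitors, and no Hox gene passed. In the limma fit over all genes, 0 of 33 Hox genes had an adjusted p under 0.05. Over all 18193 genes that fit called 0% toward SSCs and 0% toward BCSPs, and over probe sets it called 0% of 45037 and 0 of the 48 Hox probe sets. At an unadjusted p under 0.05 it held 1 Hox gene, Hoxa3, and 2.56% of all genes. Eng, which encodes the sort marker CD105, differed by -58.4 points (unadjusted p = 0.00349 in limma) and did not pass after adjustment either. For 0 of 33 Hox genes did the 4 SSC arrays and the 4 BCSP arrays not overlap, against 1.34% of all genes. This count takes the probe set with the highest mean. The second probe set of Hoxd8 did not overlap, with -20.2 to -12.15 points in SSCs and -11.8 to -0.91 in BCSPs. The share over all probe sets was not counted. The mean was higher in BCSPs for 22 of the 33 Hox genes and for 10150 of all 18193 genes, and the median difference (SSC minus BCSP) was -3.6 points over the Hox genes and -0.998 over all genes. In experiments 1 to 4 the Hox median was -0.26, 1.23, -6.12 and -7.09 points, so it had no common direction.

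Hoxa3 was 54.0 points lower in SSCs by the means, -19.9 ± 40.6 against 34.1 ± 33.1 points (SD, n = 4 each). The 95% interval of the difference ran from -108.0 to -0.0473 points, and limma gave a p of 0.0498 and an adjusted p of 1. The SSC arrays scored 10.7, -3.52, -79.7 and -6.98 points and the BCSP arrays 73.5, 9.11, 49.5 and 4.46, and the BCSP array was the higher in 4 of 4 experiments. The other probe sets of Hoxa3 differed by 2.02, -11.1 and -10.7 points. Without the SSC array of experiment 3 the difference of Hoxa3 was -34.1 points, and without the BCSP array of experiment 1 it was -40.9. With the mean of its probe sets it was -18.4. Under none of these settings was its unadjusted p in limma under 0.05. Hoxc6 had a difference of -40.6 points (interval -86.8 to 5.52, limma adjusted p = 1), and -62.5 without the BCSP array of experiment 4. Its other probe sets differed by 0.873 and -7.83 points, and the mean of its probe sets by -15.9.

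Hoxc13 differed by -19.2 points (interval -42.2 to 3.71) and was lower in SSCs in 4 of 4 experiments. Toward SSCs, Hoxa11 differed by 24.2 points (interval -0.0919 to 48.4) and Hoxb9 by 17.0 points (interval -5.09 to 39.1), each in 4 of 4 experiments, and Hoxb5 by 11.9 points (interval -12.4 to 36.2). The Hoxb5 difference was 7.70 points without the SSC array of experiment 4, and 7.44, 7.39 and 19.6 without the BCSP arrays of experiments 1, 2 and 3. All 3 genes were below 0 on every array in both populations, as was Hoxc13. The adjusted p of the named genes was between 0.928 and 1 in the limma fits and the methods' t-test under all settings run. In all, 2 Hox genes were higher in SSCs in all 4 experiments and 5 were higher in BCSPs, and over all genes these shares were 4.38% and 8.03%.

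The active genes had small differences with wide intervals. Hoxc8 differed by -0.748 points (interval -18.3 to 16.8), Hoxc10 by 3.26 (interval -13.5 to 20.01), Hoxa9 by -3.78 (interval -25.4 to 17.8), Hoxa10 by -2.99 (interval -30.2 to 24.2) and Hoxc9 by -6.42 (interval -42.1 to 29.3). Over the 33 genes the interval reached a median of 27.2 points to each side, and from 16.8 to 62.3. In this fit, which does not pair the arrays, differences within those widths were not detectable with 4 arrays a population. Intervals were not computed for the fit with experiment as a block. On the same differences, its t was -0.332 for Hoxc8 (-0.0966 without the block) and -1.02 for Hoxc9 (-0.408). The standard errors of these 2 genes were therefore smaller with the block. For Hoxd1 the t was 0.957 with the block and 1.10 without. The printed intervals are not adjusted for the number of genes, so the adjusted test can also miss differences wider than these.

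**Figure D4:**
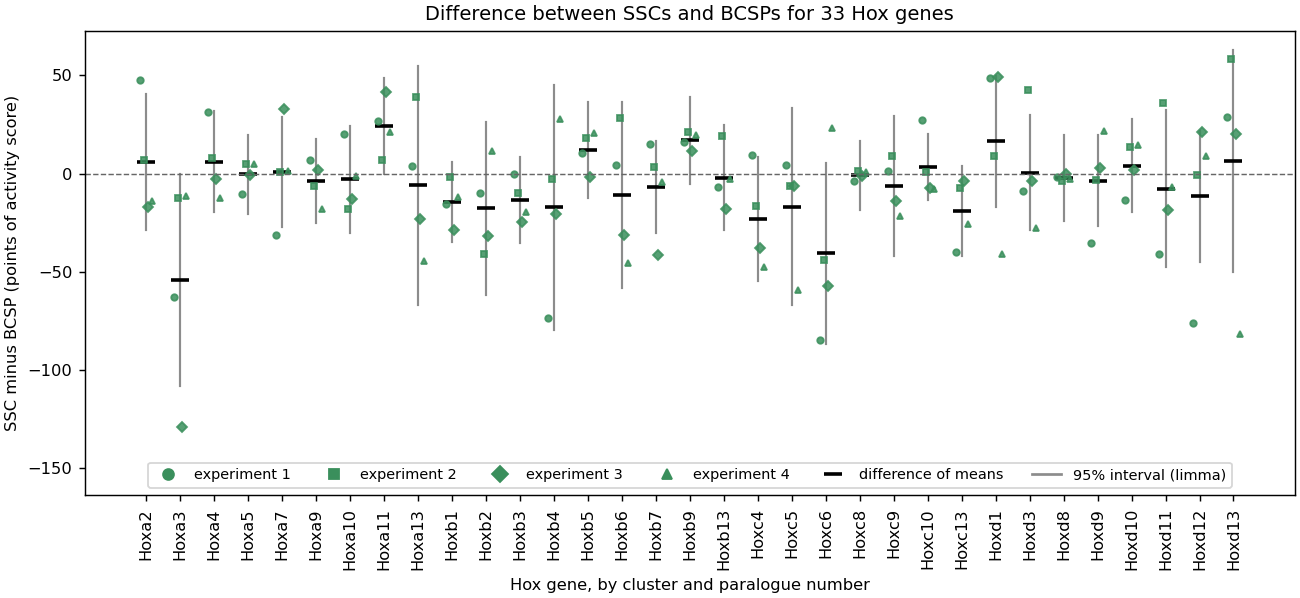
Difference between SSCs and BCSPs in points of activity score (vertical axis) for the 33 Hox genes, with a marker for each experiment, a bar for the difference of the means and a line for the 95% interval of the limma fit. The interval of Hoxa3 ends just below 0, at -0.0473 points, and those of the other 32 genes include 0.

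The second comparison asked how far the Hox genes vary between the 4 experiments, each of which gave both populations. An F test in limma, with the population as a covariate, called 0 of 33 Hox genes and 1.37% of all genes at an adjusted p under 0.05. At an unadjusted p under 0.05 it held 6 of 33 Hox genes and 26.7% of all genes. The largest statistics belonged to Hoxc8 (F = 29.6, adjusted p = 0.0506), Hoxc9 (F = 15.0, adjusted p = 0.0772) and Hoxc5 (F = 6.89, adjusted p = 0.139). Hoxc8 had means of 62.1, 70.9, 87.7 and 61.4 points in experiments 1 to 4, and within an experiment its populations lay 1.86 points apart on average. Hoxc9 had means of 79.1, 59.8, 44.8 and 21.1 points, and Hoxc5 of -13.3, 41.8, 62.5 and 26.0. For Hoxc8 the arrays of experiment 3 were the high ones, and without both of them its adjusted p was 0.491. Over 20 alternatives its adjusted p ran from 0.0361 to 0.491 and was under 0.05 in 4 of them. For Hoxc9 the range was 0.0584 to 0.268 and for Hoxc5 0.0638 to 0.881, the last with the mean of its probe sets.

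Of the 2 controls of RNA quality examined, that of actin set experiment 3 apart and that of Gapdh did not. The 3′ probe set of actin minus its 5′ probe set was 59.6 and 64.9 points in experiment 3 and 23.1 to 44.2 on the other arrays. For Gapdh this difference was 54.7 and 49.1 points in experiment 3, 53.9 and 71.9 in experiment 4 and 21.3 to 44.2 in experiments 1 and 2. Each of these differences sets 2 probe sets with their own score ranges against each other, so it is no ratio of signals. It can be compared only between arrays, and per the methods the RNA had been amplified. The arrays of experiment 3 held the lowest medians over the Hox genes, -44.4 and -35.8 points, against -26.0 to -11.8 on the others. They also held the lowest medians over all genes, -25.4 and -21.6 points against -17.9 to -11.0. The part of RNA quality in the Hox values was not tested.

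**Figure D5:**
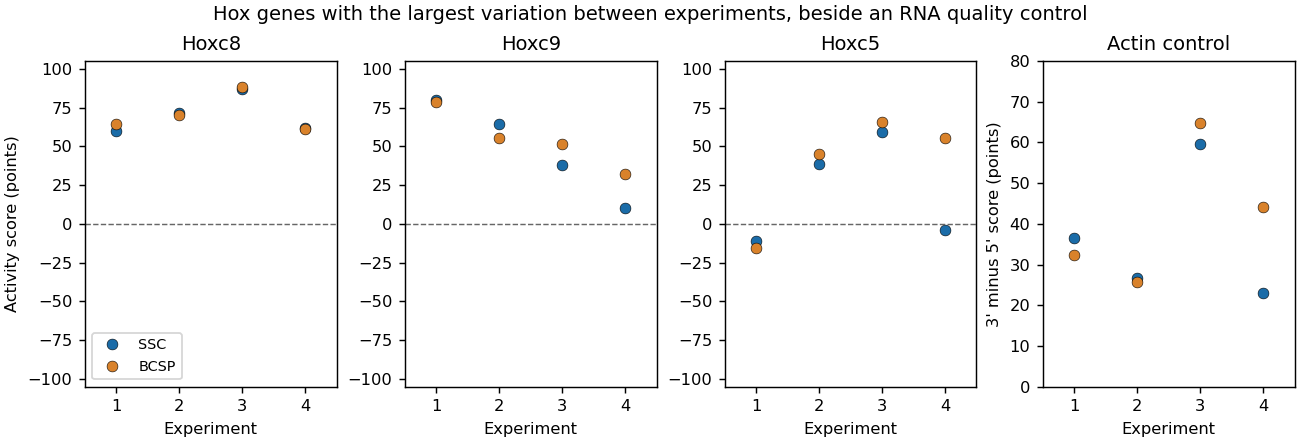
Activity score in points of Hoxc8, Hoxc9 and Hoxc5 by experiment, and in the right panel the 3′ minus 5′ score of the actin control in points, with SSC arrays in blue and BCSP arrays in orange. In experiment 3 Hoxc8 is at 87.1 and 88.3 points and the actin control at 59.6 and 64.9, each the highest values of its panel.

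Hox proteins bind DNA together with TALE homeodomain cofactors, and 3 of the 8 measured were active on all 8 arrays. Pbx3 had a mean of 72.3 points (range 57.0 to 86.1), Pknox1 of 29.99 (18.8 to 39.1) and Meis2 of 27.9 (11.0 to 59.9). Meis1 was above 0 on 2 arrays and Pbx4 on 1, and Pbx2, Meis3 and Pknox2 were inactive on all 8. These calls too take the probe set with the highest mean. The other probe sets of Pknox1 were below 0 on all 8 arrays, with means of -66.1 and -86.3 points, that of Pbx3 was above 0 on 2 (mean 0.45), and those of Meis2 on 8, 2 and 0. None of the 8 passed between SSCs and BCSPs at an adjusted p under 0.05 in limma, and 0 did at an unadjusted p. Of 25 genes that regulate the Hox clusters, 7 were active on all 8 arrays (28% against 25% of all genes), and again 0 passed the adjusted test and 2 the unadjusted one. The 7 active genes were Cyp26b1, which degrades retinoic acid (mean 77.3 points), the H3K27 demethylases Kdm6a (75.8) and Kdm6b (43.2), the Polycomb subunits Bmi1 (36.3), Rnf2 (31.2) and Eed (26.0), and Men1, a partner of the MLL methyltransferases (37.2). Men1 lay close to the threshold on the SSC arrays of experiments 1 and 4, at 0.13 and 2.02 points. Agreement between probe sets was not examined for this list. The Cdx genes, which activate Hox genes in the embryo, were inactive on all 8 arrays.

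Of 5 genes known for limb identity, Shox2, which patterns the upper limb segment, was active on all 8 arrays with a mean of 98.5 points (96.7 to 99.1). Pitx1, which sets hind limb identity, was active on 7 arrays with a mean of 41.1 points. In experiment 3 it scored 2.64 points in SSCs and -1.82 in BCSPs, and elsewhere it scored 24.7 to 68.5. Its second probe set had a mean of -15.9 points and was above 0 on 2 arrays. Tbx4, Tbx5 and Isl1 were inactive on all 8 arrays.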

How the data were processed

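Per the labels, RNA of sorted callus cells was hybridized to Affymetrix mouse arrays, and per the methods it was amplified first and the arrays were normalized on Gene Expression Commons. The deposited value of each of 45101 probe sets is the activity score that the authors obtained there, from -100.03 to 100. The sources used here do not say how probes were summarised. Tests left out 64 control probe sets. Probe sets were named by the platform annotation: 34958 had 1 symbol, 932 several and 9211 are not listed there. A gene is its probe set with the highest mean over the 8 arrays, which favours active calls where probe sets disagree.

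The scores were compared as deposited by linear models without a block and with a trended prior variance (limma 3.58.1, run in R 4.3.3), adjusted over all genes by Benjamini and Hochberg. The fits were tested on simulated scores. Genes given in full are the Hox genes active on all 8 arrays, the 3 with the largest statistic toward each population and the 3 with the largest F between experiments, and, of the other lists, those active on all 8 arrays. Other Hox genes are described after their values were seen. Members and lists were chosen with earlier results of these data known. Promoter windows are from RefSeq, GRCm38.p6.

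For the BCSP array of experiment 2 the title gives number 3 and the description number 2; it was taken as 2. Once group means were subtracted, the pairs of equal number correlated at 0.399, 0.177, 0.572 and 0.183 in experiments 1 to 4, and each of the 8 arrays correlated best with its own number, so the numbers were taken to pair the arrays, and the fit with experiment as a replicate block is an alternative. The labels and the methods differ on the day of harvest. Other alternatives were quantile normalization, centring, an inverse normal scale, averaging probe sets, filters on low scores, no trend, array weights, the methods' t-test and leaving out each array. Leaving out both arrays of an experiment was added after seeing the data.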

Additional observations from a re-analysis of the deposited data

Results flagged for a closer look

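For each Hox gene and population the array farthest from the other 3 was set against the range of the 4 values. Of 66 such sets 8 held an outlying array by Dixon's test, where chance gives about 1 in 20, or 3.3. Among the genes active on all 8 arrays, Hoxa10 scored 16.6 points on the BCSP array of experiment 4 and 36.2 to 38.2 on the other BCSP arrays. Hoxc6 scored -7.48 points on the same array and 73.0 to 86.6 on the other BCSP arrays, the widest of these gaps in points. On the BCSP array of experiment 1, Hoxa2 scored -90.0 points against -33.3 to -26.0 on the others, Hoxa7 -13.3 against -57.1 to -52.0, and Hoxd11 -11.6 against -76.1 to -65.9. On that array 5 of 76 probe sets of genes of unrelated tissues were above 0, and 1 to 3 were on the other arrays. Hoxc13 scored -65.0 points on the BCSP array of experiment 2, against -41.5 to -39.7. Hoxb7 scored -58.4 points on the SSC array of experiment 3, against -44.2 to -41.9. Hoxd12 scored -96.4 points on the SSC array of experiment 1, against -62.6 to -55.7. In all 8 cases except Hoxc6 the outlying array was on the same side of 0 as the others.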

How the results depend on the processing

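No Hox gene or Hox probe set passed between SSCs and BCSPs under any setting run. With the replicate block, which pairs the arrays, 0 Hox genes passed and 2 (Hoxa11 and Hoxb9) had an unadjusted p under 0.05, and 0 of 18193 genes passed. The replicate block with quantile normalization gave the same counts. The methods' t-test called 0 Hox genes and had 1, Hoxa11, at an unadjusted p under 0.05. The 6 genes named for their difference kept their direction in every alternative run for them, which for Hoxc13, Hoxa11, Hoxb9 and Hoxb5 leaves out the filters on low scores, since these removed them. Without both arrays of an experiment, an alternative chosen after seeing the data, the differences ran from -68.2 to -28.9 points for Hoxa3, -62.0 to -26.0 for Hoxc6, -24.4 to -12.3 for Hoxc13, 18.4 to 29.8 for Hoxa11, 15.6 to 18.9 for Hoxb9 and 8.97 to 16.4 for Hoxb5. Between experiments 1 Hox gene, Hoxc8, passed with arrays centred on their medians, with each of the filters on low scores (above 0 on at least 4 arrays, or a mean above the median of all genes) and with array weights. All genes called between experiments numbered 250, from 0 to 1040 over the alternatives, and 0 to 6 with 1 array left out. The Hox genes active on all 8 arrays numbered 3 (Hoxc8, Hoxc9 and Hoxc10) where every probe set had to be active. They also numbered 3 (Hoxc4, Hoxc8 and Hoxc9) with the 95th percentile of 76 silent probe sets in place of 0. That percentile was 40.2 points on the BCSP array of experiment 1 and -14.5 to -4.39 on the others. With the mean of the probe sets they numbered 4, without Hoxa10. The median Hox difference was -10.00 points without both arrays of experiment 2, and -6.11 to -0.546 without any single array. Depth has no counterpart on these arrays, and scores near -100 or 100 cannot show further change.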

Other observations

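Genes that flank the Hox clusters held active and inactive members. Of the 3 nearest protein-coding genes on each side of each cluster in RefSeq, 22 were measured and 5 were active on all 8 arrays (22.7%, beside 25% of all genes). They were Skap2, an adaptor protein gene at the 3′ end of the Hoxa cluster (mean 60.9 points), Tax1bp1 beyond Hoxa13 (50.4), Lnpk, which shapes the endoplasmic reticulum, beyond Hoxd13 (48.4), and the heterochromatin gene Cbx5 (34.5) and the RNA-binding protein gene Hnrnpa1 (58.0) beyond Hoxc4. No neighbour of the Hoxb cluster was active on all 8 arrays. Active on all 8 arrays were 2 of 6 measured neighbours of the Hoxa cluster, 2 of 6 of Hoxc and 1 of 4 of Hoxd.

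Other transcripts of the clusters were measured for 5 genes, and 0 were active on all 8 arrays. Evx1 and Evx2, homeobox genes at the 5′ ends of the Hoxa and Hoxd clusters, had means of -47.0 and -53.5 points. The antisense transcripts Hoxb5os and Hoxd3os1 were below 0 on all arrays. Hoxa11os, the antisense transcript of Hoxa11, was above 0 on both arrays of experiment 1 (43.8 points in SSCs and 32.8 in BCSPs) and between -92.5 and -25.0 on the other arrays. Its second probe set was below 0 on all 8 arrays (-72.1 to -11.8 points).

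Over the Hox genes the median correlation between arrays was 0.818 within an experiment and 0.792 within a population. Over all genes these medians were 0.894 and 0.843. These correlations run across genes, which are not independent replicates.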
